A study of Mus musculus with 13 samples.

Results

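Cholesterol synthesis and its control by the transcription factor SREBP2 were followed in mouse adrenal glands through 28 named genes, all of which were among the 14078 genes measured in every library and tested. The genes were chosen by name. They comprised 2 enzymes that supply acetyl-CoA, 7 enzymes of the mevalonate steps, 1 enzyme at the branch to longer isoprenoids, 12 enzymes of the sterol steps and 6 regulators. The study sequenced messenger RNA of adrenal glands from C57BL/6 mice in which TAM induction deletes Star, the gene of the protein that moves cholesterol to the inner mitochondrial membrane. There were 5 libraries from before TAM, 4 from 24 h after it and 4 from 8 weeks after it. All groups carry the label C57BL/6. No group received TAM with Star kept, and the passage of time, the drug and the deletion cannot be told apart. The Cre driver, the cells in which it acts, and the age and sex of the animals were not stated in these sources, nor is it said whether each library came from a separate animal. P-values therefore measure the spread between these samples, which may be technical.

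Cells build cholesterol from acetyl-CoA. The mevalonate steps make the isoprenoid farnesyl diphosphate, squalene synthase joins it to squalene, and the sterol steps close the rings and trim lanosterol to cholesterol. SREBP2 turns on most of these genes when membranes run low in sterol: SCAP carries it from the endoplasmic reticulum to the Golgi, where the site-1 and site-2 proteases release its active part, while INSIG proteins hold SCAP back when sterol is plentiful. In the adrenal cortex cholesterol is the starting material of steroid hormones and is taken up from lipoproteins as well as made in the cell.

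The promoters of 4 genes that the results turn on are shown here because they differ in what their transcripts did: Hmgcs1, the synthase of the mevalonate steps, Insig1, Acss2 and Dhcr7. Each line gives 150 bases of mouse genome build GRCm38.p6 from RefSeq, read 5′ to 3′ on the strand of the gene, upstream of its first annotated exon. Capitals mark matches, on either strand, to TCACNCCAC (a sterol regulatory element type), CCAAT (the NF-Y box), GGGCGG (the GC box) or TCACGTGA (an E-box type).
Hmgcs1, plus strand, chr13:119690201-119690350: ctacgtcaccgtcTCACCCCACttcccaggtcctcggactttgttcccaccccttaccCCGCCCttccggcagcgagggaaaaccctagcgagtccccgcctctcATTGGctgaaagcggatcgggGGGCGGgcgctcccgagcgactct
Insig1, plus strand, chr5:28071213-28071362: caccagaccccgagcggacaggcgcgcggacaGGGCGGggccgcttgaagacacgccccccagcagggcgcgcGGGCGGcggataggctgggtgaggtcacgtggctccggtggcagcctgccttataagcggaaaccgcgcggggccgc
Acss2, plus strand, chr2:155517798-155517947: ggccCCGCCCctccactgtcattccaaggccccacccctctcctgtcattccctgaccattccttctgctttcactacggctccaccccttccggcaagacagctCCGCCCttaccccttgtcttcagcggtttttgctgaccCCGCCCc
Dhcr7, plus strand, chr7:143823017-143823166: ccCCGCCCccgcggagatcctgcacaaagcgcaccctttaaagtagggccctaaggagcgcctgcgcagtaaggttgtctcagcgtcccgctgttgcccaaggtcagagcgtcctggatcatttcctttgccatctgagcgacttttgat

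The Hmgcs1 stretch holds the sterol regulatory element type, an NF-Y box and 2 GC boxes. The Acss2 stretch holds 3 GC boxes, that of Insig1 holds 2 and that of Dhcr7 holds 1. The stretches do not all lie at the same distance from the start site, and matches outside them are not printed. Outside its stretch Acss2 also has an NF-Y box at −73 from the start site, and Insig1 has one at −216. Dhcr7 has NF-Y boxes at −85 and −49 from another of its start sites. Over the full windows of 250 bases before to 50 bases after a start site, which 25 of the 28 genes have, the NF-Y box was found for 21 genes (84%), against 42.4% of the 10581 tested genes with a window. The GC box was found for 22 (88%), against 67.8%. The sterol regulatory element type was found for 1 gene, Hmgcs1, against 1.45% of tested genes, and the E-box type for none, against 2.06%. Of all 27025 genes with a window the shares were 41.1%, 38.2%, 1.44% and 1.12% in that order. A match to these letters is a description of the window and not a site of binding, and the lack of a match does not show that a site is absent.

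Listed reads per library ranged from 17331673 to 27309429, and the 28 genes together held 57008 to 189606 reads, or 0.257% to 0.736%. The lowest summed count of any of them in any library was 56, for Tm7sf2. Levels are FPKM as deposited, a count divided by transcript length and library total. Counts of genes whose groups did not overlap were made on TMM-scaled counts per library total (CPM). Where FPKM values are listed by library, their order is described in FPKM, and some orders differ in CPM. Star itself stood at 3207 to 4239 FPKM before TAM, 17.4 to 626 at 24 h and 85.9 to 202 at 8 weeks. Star was lower in all 8 libraries after TAM than in any of the 5 before it, and the later groups overlapped each other. Several libraries stood apart by cell markers. The 24 h library 3 was low in cortex, medulla and fat cell markers, 24 h library 4 was low in medulla markers, before library 1 was low in fat cell markers, and albumin was at 13283 FPKM in 8-week library 3 and 978 in before library 5, against at most 11.7 elsewhere. In whole glands, fewer cells of a type and less RNA per cell cannot be told apart. Summed cortex markers ran from 19545 to 32229 FPKM before, 4445 to 29231 at 24 h and 1993 to 4970 at 8 weeks, and all 11 were above 0 in every library. Summed fat cell markers ran from 213 to 1389, 72.7 to 2522 and 4489 to 11925, with Lep at 0 in a 24 h library.

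At 8 weeks the pathway did not move as a block. Of the 28 genes, 4 rose and 6 fell against before, by edgeR's quasi-likelihood test with Benjamini-Hochberg adjustment over all 14078 genes and a threshold of 0.05. That is 35.7% of the genes, near the 36.9% of all genes called in this comparison (20.5% higher and 16.4% lower). The rises were Acss2, Acat2, Pmvk and Insig1, and the falls were Dhcr7, Hsd17b7, Msmo1, Scap, Mbtps1 and Ggps1. The median log2 fold change of the 28 was −0.29, beside 0.03 for all genes. Groups did not overlap for 3 genes that stood higher (Acat2, Pmvk and Lbr) and 5 that stood lower (Ggps1, Dhcr7, Scap, Mbtps1 and Mbtps2), beside 23.2% and 21.1% of all genes (44.4% either way), on the CPM scale. Scaling by library size alone, in place of TMM, moved the median of all genes from 0.030 to −0.097 and the share of calls that were higher from 55.5% to 44.2%, and no called gene changed direction. The count of rises was 2 without 8-week library 1. The count of falls was 0 without 8-week library 2, 1 without before library 3, before library 4 or 8-week library 1, 2 without before library 5, and 3 without 24 h library 1 or 8-week library 4. Without before library 5 and 8-week library 3 together, 3 genes rose (Acat2, Acss2 and Pmvk) and 2 fell (Scap and Srebf2).

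At 24 h no gene rose and 4 fell: Mvk, Mvd, Lss and Hsd17b7, which is 14.3% of the 28 beside 19.2% of all genes (12.6% higher and 6.63% lower). At an unadjusted p under 0.05 there were 12 genes (42.9%), beside 32.5% of all genes. The point estimate was below 0 for 23 of the 28, for all 7 genes of the mevalonate steps and for 10 of the 12 sterol steps, and the median was −0.49 beside 0.03 for all genes. Among those 7, Pmvk was in effect level, at a mean of 15.2 CPM both before and at 24 h. Many of these genes move together from library to library, as described below, so the 23 are not separate observations. In 1 gene, Tm7sf2, every 24 h library lay below every library from before on the CPM scale, beside 8.28% of all genes, and no gene lay above, beside 9.57%. The count of falls was 0 without before library 4, before library 5 or 24 h library 4, 1 without before library 3, 24 h library 1 or 24 h library 2, and 2 without 8-week library 1, 2 or 4. With 24 h library 3 left out, Insig2 was called higher. Without 24 h libraries 3 and 4 together, 2 genes fell (Fdft1 and Hsd17b7). The comparisons of 24 h and of 8 weeks share the libraries from before.

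**Figure D1:**
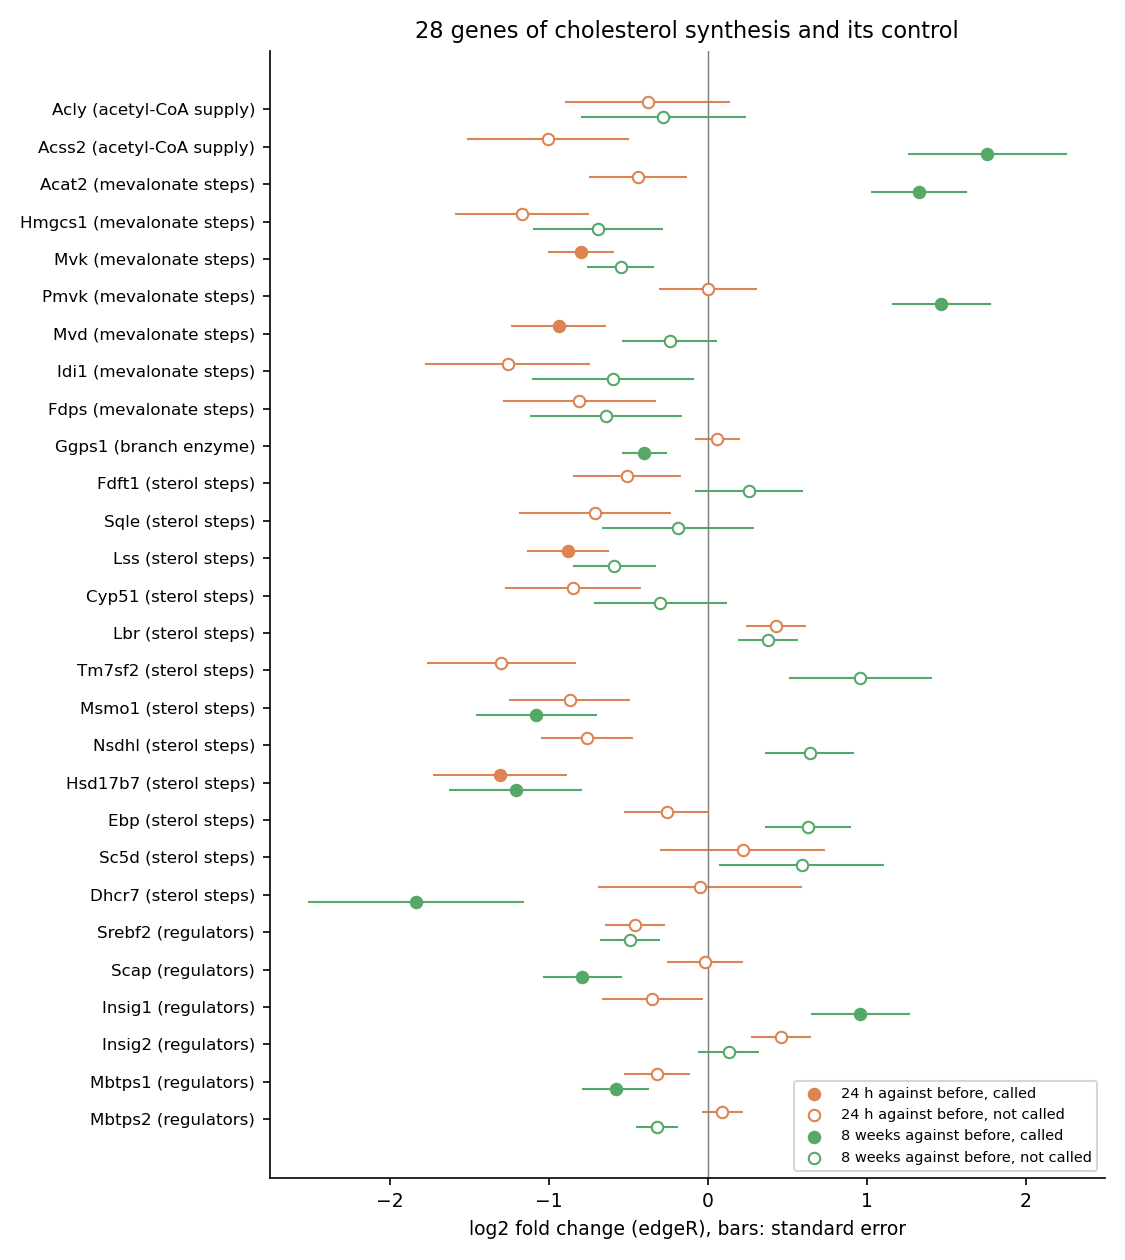
Log2 fold changes of the 28 genes at 24 h (orange) and 8 weeks (green) against before TAM from the edgeR fit, in order of role; bars are the standard error, filled points passed the threshold and open points did not. At 24 h most points lie left of 0 and 4 are filled, while at 8 weeks Acss2, Acat2, Pmvk and Insig1 lie to the right and 6 filled points lie to the left.

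From 24 h to 8 weeks 7 genes rose (Acss2, Acat2, Pmvk, Tm7sf2, Nsdhl, Ebp and Insig1) and 2 fell (Ggps1 and Mbtps2), 32.1% of the 28 beside 20.8% of all genes (10.1% higher and 10.6% lower). The median was 0.33 beside −0.03 for all genes, and groups did not overlap for 8 genes that stood higher and 1 that stood lower, beside 13.2% and 9.76% of all genes (23% either way). With library size alone, the share of all calls that were higher went from 48.9% to 36.1%. Without 24 h libraries 3 and 4 together, 4 genes rose (Acat2, Acss2, Fdft1 and Nsdhl). The count of falls was 0 without before library 1 or 3, 24 h library 1 or 8-week library 1, 2 or 4, 1 without 8-week library 3 and 4 without 24 h library 3.

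Of the enzymes that supply acetyl-CoA, Acly stood above Acss2 in every library, and they parted at 8 weeks. Acly, the ATP citrate lyase that makes acetyl-CoA from citrate, had the highest level of the 28 genes before TAM, with 264, 462, 616, 494 and 428 FPKM. It was at 405, 521, 58.2 and 365 at 24 h and at 374, 162, 276 and 550 at 8 weeks. The groups overlapped, 24 h library 3 stood far below the rest, and the 8-week difference was −0.28 (SE 0.52, adjusted p = 0.70). Acss2, which makes acetyl-CoA from acetate, was at 18, 25.4, 20.4, 47.5 and 44.9 before, 21.8, 25.9, 6.84 and 6.14 at 24 h, and 147, 42.8, 67.9 and 126 at 8 weeks. Libraries 1, 3 and 4 of the 8-week group lay above every library from before, and library 2 lay among them. Acss2 rose at 8 weeks by 1.76 on the log2 scale (SE 0.50, adjusted p = 0.015), a call that was lost without 8-week library 1 (adjusted p = 0.052), and by 2.77 from 24 h to 8 weeks (SE 0.56, adjusted p = 0.0083). The level of Acss2 as a ratio to Acly went from 0.0714 ± 0.0295 (SD, n = 5) before to 0.0595 ± 0.0421 (n = 4) at 24 h and 0.284 ± 0.0748 (n = 4) at 8 weeks, and the lowest 8-week ratio, 0.23, lay above the highest other, 0.118.

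Among the mevalonate steps, Acat2 and Pmvk rose at 8 weeks and the others did not pass the test. Acat2, the cytosolic thiolase of the first step, was at 12.5, 18.7, 23.6, 29 and 23 FPKM before, 23.8, 17, 10.6 and 10.7 at 24 h, and 70.3, 41.3, 31.3 and 54.4 at 8 weeks. Every 8-week library exceeded every other library. The rise was 1.33 (SE 0.30, adjusted p = 0.0044) against before and 1.77 (SE 0.33, adjusted p = 0.0059) against 24 h, and both calls held under each of the 24 alternative settings. Pmvk, the phosphomevalonate kinase, was at 5.51, 9.41, 16.7, 14.7 and 12.3 before, 13, 14.2, 7.7 and 11.2 at 24 h, and 32.8, 22.3, 26.8 and 36.6 at 8 weeks. It too was higher in all 4 libraries of 8 weeks than in any other library. Its log2 fold change was 1.47 (SE 0.31, adjusted p = 0.0026) against before, again held under all 24 settings, and 1.47 (SE 0.33, adjusted p = 0.012) against 24 h.

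The kinases and the decarboxylase on either side of Pmvk did not rise with it. Mvk, the mevalonate kinase, was at 8.17, 10.6, 12.5, 14.1 and 11.7 FPKM before, 7.32, 8.07, 5.59 and 4.9 at 24 h, and 5.87, 6.65, 7.83 and 7.88 at 8 weeks. The lowest library from before, at 8.17, lay just above the highest later one, at 8.07. On the CPM scale before library 1 lay below 24 h library 2 and 8-week libraries 3 and 4. Mvk fell by 0.80 at 24 h (SE 0.21, adjusted p = 0.021), a call lost without before library 4 (adjusted p = 0.064), before library 5 (0.052) or 24 h library 4 (0.062), and at 8 weeks its fold change was −0.55 (SE 0.21, adjusted p = 0.058). Mvd, the decarboxylase that makes isopentenyl diphosphate, was at 3.77, 6.71, 9.04, 13.5 and 8.8 before, 4.08, 4.22, 5.29 and 3.67 at 24 h, and 6.11, 6.25, 7.79 and 5.49 at 8 weeks. Before library 1 lay among the 24 h libraries and the other 4 above them. Mvd fell by 0.94 at 24 h (SE 0.30, adjusted p = 0.044), and the call was lost, with adjusted p from 0.055 to 0.12, without any of before libraries 2 to 5, 24 h libraries 1, 2 and 4, or 8-week libraries 1, 2 and 4.

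Hmgcs1, Idi1 and Fdps had wide ranges before TAM that covered most later values. Hmgcs1, whose promoter is shown above, was at 31.1, 56.5, 140, 133 and 83.9 FPKM before, 37.6, 29.7, 72.8 and 20 at 24 h, and 51.9, 47.7, 47.1 and 55.7 at 8 weeks. The 8-week libraries lay close together, between the lowest library from before and the next. At 24 h the difference from before was −1.17 (SE 0.42, adjusted p = 0.069), and at 8 weeks it was −0.69 (SE 0.41, adjusted p = 0.21). Idi1, the isopentenyl diphosphate isomerase, was at 15.9, 18.4, 87.7, 73.2 and 45.2 before, 21.3, 19.8, 33.5 and 6.73 at 24 h, and 37.2, 24.3, 30.9 and 23.7 at 8 weeks. Fdps, the farnesyl diphosphate synthase, was at 49, 47.8, 181, 238 and 149 before, 125, 84.3, 57.8 and 34.6 at 24 h, and 79.7, 73.5, 68.5 and 92.1 at 8 weeks. For both, the 8-week values fell inside the range from before and neither passed the test at either time. Ggps1, which extends farnesyl diphosphate for the other isoprenoid branch, was nearly level at 13.8 to 15.8 before and 12.3 to 20.8 at 24 h, and stood at 11.5, 9.36, 9.04 and 11.6 at 8 weeks, below every earlier library. It fell by 0.40 against before (SE 0.14, adjusted p = 0.038), a call lost without before library 3 (0.081) or 4 (0.050) or 8-week library 2 (0.12) or 3 (0.083). Against 24 h Ggps1 fell by 0.46 (SE 0.15, adjusted p = 0.042), lost with adjusted p from 0.051 to 0.11 without before library 1 or 3, 24 h library 1 or any 8-week library.

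Within the group from before TAM, the enzymes rose and fell together from library to library. This pattern was chosen after the values were seen. Before libraries 3 and 4 were the highest pair for 16 of the 19 enzymes of the mevalonate and sterol steps (84.2%), beside 9.66% of all genes, and before libraries 1 and 2 were the lowest pair for 18 of the 19 (94.7%), beside 13.3%. Of the 6 regulators, 3 had the first order (Srebf2, Scap and Insig1) and 2 the second (Srebf2 and Insig1). The median ratio of the highest to the lowest library in this group, in CPM, was 3.12 over the 19 enzymes, with a range from 1.34 to 5.74, beside 1.31 for the regulators and 1.44 for all genes. Sqle, for example, was at 8.77 and 8.55 FPKM in libraries 1 and 2 and at 42.6 and 26.2 in libraries 3 and 4. Neither the summed cortex markers (26012, 22002, 32229, 19545 and 20249 FPKM in libraries 1 to 5) nor the fat cell markers (213, 1086, 1206, 1208 and 1389) put libraries 3 and 4 above the other 3. The fat cell sums were lowest in libraries 1 and 2, as the enzymes were, and the cortex sums were not. Summed medulla markers (3743, 5200, 1187, 2323 and 2536) were lowest in libraries 3 and 4 and highest in libraries 1 and 2, the inverse of the order of the enzymes, and summed macrophage markers (533, 452, 339, 251 and 314) were also highest in libraries 1 and 2. The part of cell content in this pattern was not tested. At 24 h the median ratio was 2.5 for the enzymes beside 2.04 for all genes, with 24 h library 4 lowest for 12 of the 19 (63.2%, beside 29.3% of all genes). At 8 weeks it was 1.63, beside 1.49.

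**Figure D2:**
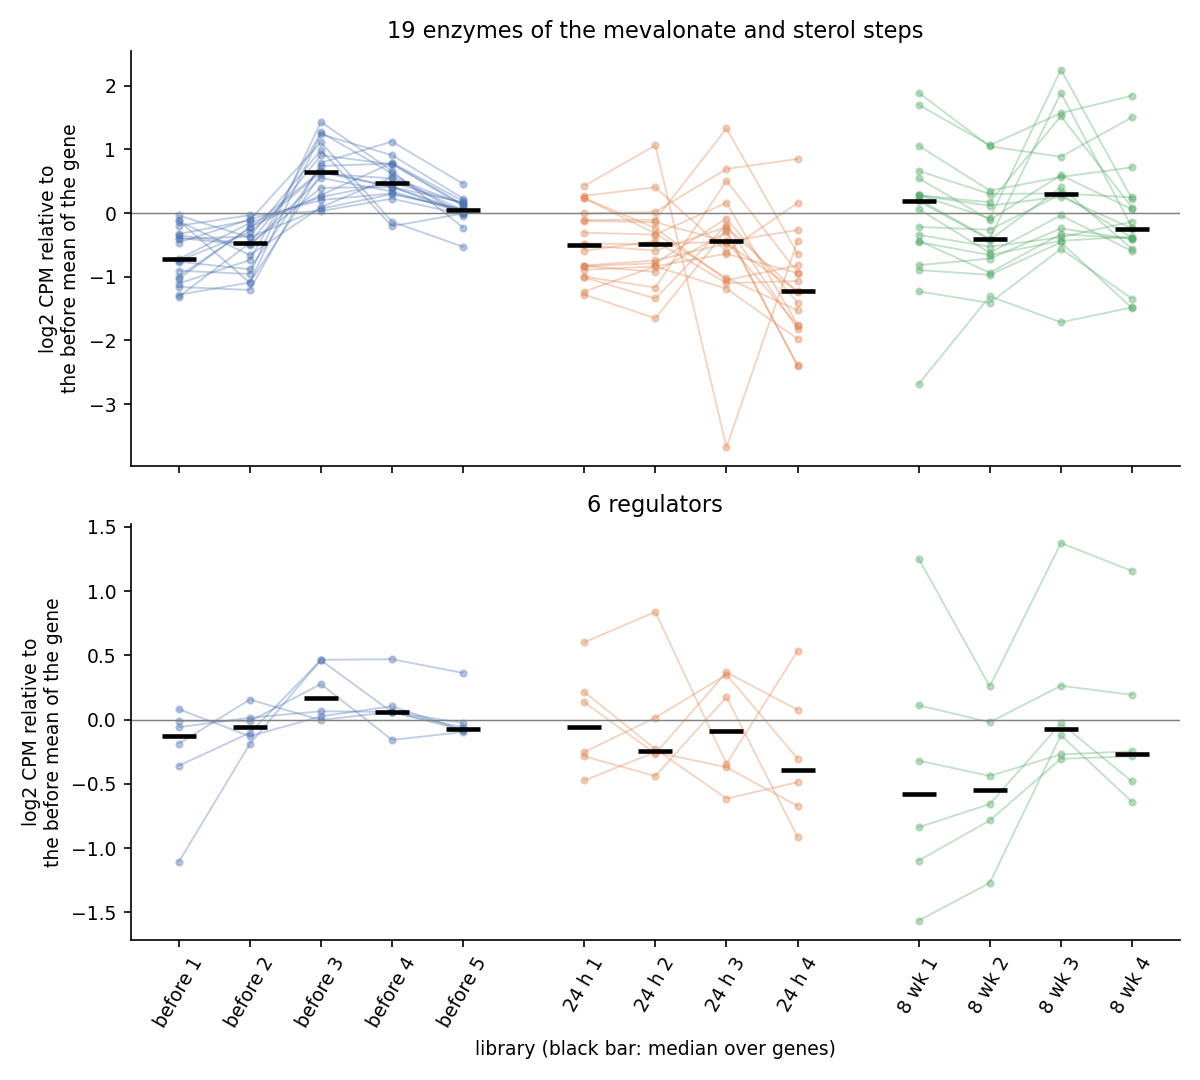
Log2 CPM of each gene relative to its own mean before TAM (vertical axis), by library (horizontal axis), for the 19 enzymes of the mevalonate and sterol steps (top) and the 6 regulators (bottom); thin lines join the values of 1 gene within a group and black bars are medians over genes. The enzymes share low values in before libraries 1 and 2 and high values in libraries 3 and 4, and the regulators spread less.

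The sterol steps from squalene to lanosterol overlapped between groups. Fdft1, squalene synthase, was at 13.4, 12.3, 21.6, 22.9 and 17.5 FPKM before, 8.38, 7.39, 25.8 and 8.16 at 24 h, and 23, 15.3, 21.2 and 16.5 at 8 weeks. Libraries 1, 2 and 4 of 24 h lay below every other library, and library 3 lay above all. The fold change at 24 h was −0.51 (SE 0.34, adjusted p = 0.33). Exons of Fdft1 share 774 bases with those of Ctsb, a lysosomal protease gene on the opposite strand, and the sources used here do not say whether the counting used strand. Sqle, squalene epoxidase, was at 14 in before library 5, 13, 12.6, 19.5 and 4.44 at 24 h and 18.3, 17.2, 16.1 and 12.9 at 8 weeks, within the range of the libraries from before for all but 1. Lss, lanosterol synthase, was at 4.92, 6.78, 12.4, 11.1 and 8.26 before, 4.57, 4.8, 6.3 and 3.23 at 24 h, and 5.62, 4.18, 5.4 and 5.8 at 8 weeks. Lss fell by 0.88 at 24 h (SE 0.26, adjusted p = 0.032), a call lost with adjusted p from 0.058 to 0.095 without before library 3, 4 or 5 or 24 h library 1, 2 or 4. At 8 weeks it was −0.59 (SE 0.26, adjusted p = 0.091).

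Of the demethylation steps, Hsd17b7 and Msmo1 fell at 8 weeks and Nsdhl did not. Hsd17b7, the sterol 3-keto reductase, was at 9.76, 5, 15.6, 15.5 and 10.9 FPKM before, 4.26, 3.27, 9.35 and 1.82 at 24 h, and 4.14, 3.85, 5.88 and 3.86 at 8 weeks. Before library 2 lay below 8-week library 3 and the other libraries from before lay above the 8-week group. Hsd17b7 fell by 1.31 at 24 h (SE 0.42, adjusted p = 0.046). At 8 weeks it fell by 1.21 (SE 0.42, adjusted p = 0.038). The first call was lost, with adjusted p from 0.058 to 0.11, without before library 1, 3, 4 or 5, 24 h library 1, 2 or 4, or 8-week library 1, 2 or 4, and the second, from 0.050 to 0.096, without before library 3, 4 or 5 or 8-week library 1, 2 or 4. Msmo1, the methyl sterol oxidase, was at 68.7, 64, 188, 202 and 128 before, 64, 65.7, 117 and 40 at 24 h, and 57.7, 57.7, 69.7 and 38.5 at 8 weeks. Apart from library 3, the 8-week values lay below every library from before. Msmo1 fell by 1.08 at 8 weeks (SE 0.38, adjusted p = 0.042), and lost the call, with adjusted p from 0.052 to 0.11, without before library 3, 4 or 5, 24 h library 1 or 2, or 8-week library 1, 2 or 4.

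Nsdhl, the dehydrogenase that acts between those enzymes, rose after 24 h. It was at 13.9, 13, 25.7, 23.3 and 18.3 FPKM before, 12.8, 12.6, 14.3 and 4.89 at 24 h, and 34.9, 22.6, 22.2 and 27.9 at 8 weeks. All 8-week libraries exceeded all 24 h libraries and 2 of them overlapped the range from before. From 24 h to 8 weeks Nsdhl rose by 1.40 (SE 0.31, adjusted p = 0.011), which held under all 24 settings, and against before it stood at 0.64 (SE 0.28, adjusted p = 0.094). From 24 h to 8 weeks Hsd17b7 was at 0.09 (adjusted p = 0.89) and Msmo1 at −0.21 (adjusted p = 0.74), and neither was called. Cyp51, the lanosterol demethylase, was at 8.61, 11.2, 42.9, 28.7 and 18 before, 12.8, 12, 16.9 and 7.14 at 24 h, and 19.4, 13.4, 20.1 and 11.6 at 8 weeks, and passed no test.

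The sterol C14 reductase step has 2 enzymes, Tm7sf2 and Lbr, the latter also a receptor of the nuclear lamina. Tm7sf2 was at 6.77, 4.72, 7.57, 11 and 8.09 FPKM before, 3.08, 4.03, 3.44 and 1.72 at 24 h, and 8.27, 6.76, 28.9 and 8.01 at 8 weeks. The 24 h libraries were the lowest 4 of the 13. Lbr was at 5.93, 6.72, 6.69, 8.02 and 6.69 before, 6.64, 6.69, 11.7 and 11.2 at 24 h, and 9.9, 8.11, 6.92 and 7.49 at 8 weeks, with overlap at 24 h. The level of Lbr over that of Tm7sf2 was 0.947 ± 0.273 (SD, n = 5) before, 3.43 ± 2.18 (n = 4) at 24 h and 0.893 ± 0.453 (n = 4) at 8 weeks, and the lowest 24 h ratio, 1.66, was above the highest from before, 1.42. Tm7sf2 rose by 2.27 from 24 h to 8 weeks (SE 0.50, adjusted p = 0.011), and by 1.40 without 8-week library 3 (adjusted p = 0.016). Against before, the 24 h value was −1.30 (SE 0.47, adjusted p = 0.069) and the 8-week value 0.96 (SE 0.45, adjusted p = 0.11), which was 0.10 (adjusted p = 0.83) without 8-week library 3.

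Tm7sf2, Ebp and Sc5d each had a single far higher library at 8 weeks, the one with albumin. In CPM, that library was the highest of its group for 10 of the 19 enzymes of the mevalonate and sterol steps (52.6%). It was the highest for 14 of the 28 genes (50%), beside 25% of all genes. Ebp, the sterol isomerase, was at 22.9, 18.2, 23.7, 29 and 24.3 FPKM before, 21.1, 20.6, 18.3 and 17.8 at 24 h, and 26.1, 25.5, 55.4 and 23.1 at 8 weeks. The other 8-week values lay within the range from before. Ebp rose by 0.89 from 24 h to 8 weeks (SE 0.28, adjusted p = 0.042), a call lost without any of 11 of the 13 libraries, with adjusted p from 0.051 to 0.088, the exceptions being 8-week libraries 2 and 4. Without 8-week library 3 the Ebp difference was 0.42 (adjusted p = 0.086). Against before, Ebp was at 0.63 (SE 0.27, adjusted p = 0.079), and at 0.16 (adjusted p = 0.43) without that library. Sc5d, the sterol C5 desaturase, was at 22.3, 23.1, 56.3, 25.8 and 29.3 before, 26.8, 26.6, 78.8 and 17.3 at 24 h, and 31.4, 21.6, 89.7 and 23.4 at 8 weeks. Its library 3 was the highest in all 3 groups, and it passed no test. Albumin was at 13283 FPKM in 8-week library 3, 978 in before library 5 and 0 in 24 h library 3. The part of other tissue in these values was not tested.

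**Figure D3:**
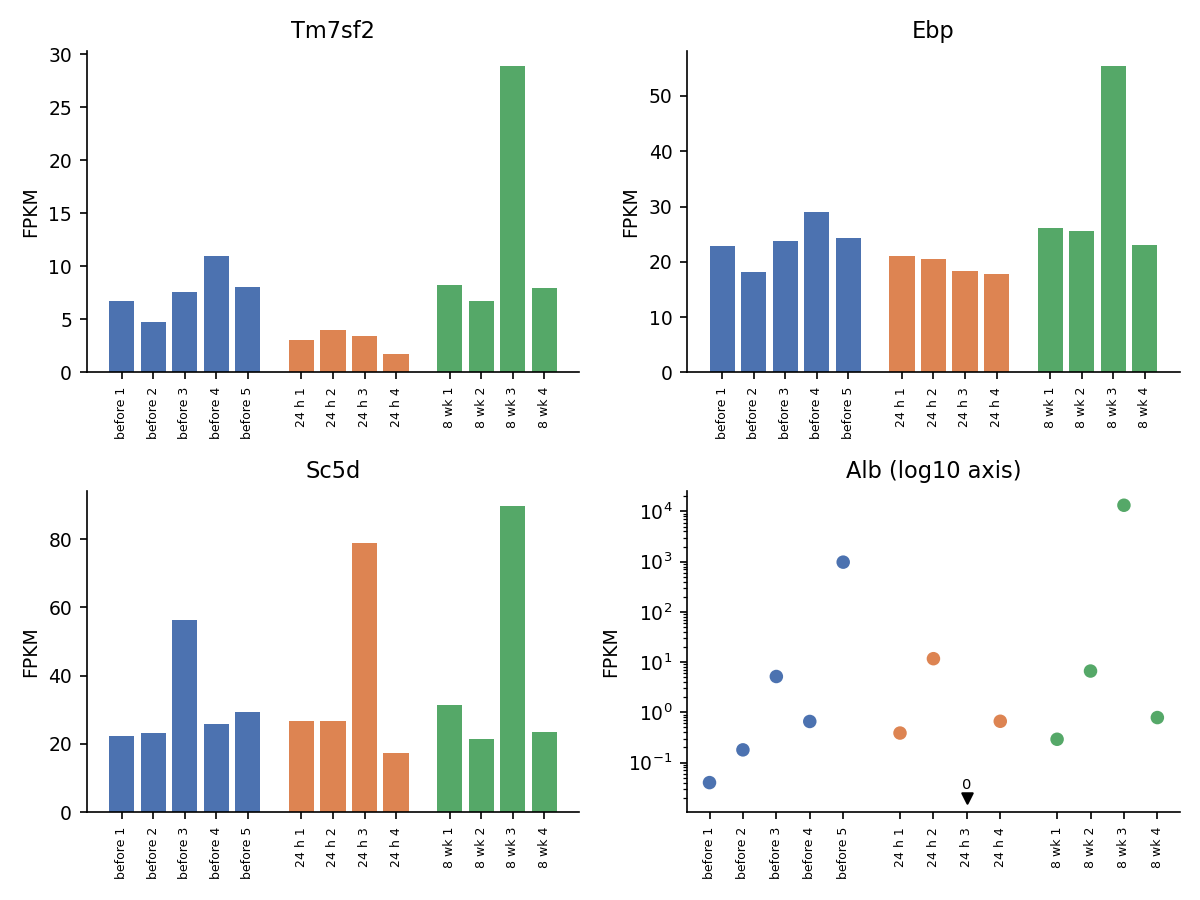
FPKM of Tm7sf2, Ebp and Sc5d (bars, linear axis) and of albumin (points, log10 axis, with the value of 0 drawn as a triangle) in each library, coloured by group. The 8-week library 3 is the highest for all 4 genes, at 28.9, 55.4, 89.7 and 13283 FPKM, and Sc5d is also high in library 3 of the other groups.

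Dhcr7, which makes cholesterol in the last step of the Kandutsch-Russell route, had the second highest level of the 28 genes before TAM. It was at 135, 159, 354, 156 and 118 FPKM before, 224, 346, 14.2 and 115 at 24 h, and 24.3, 66.6, 42.6 and 56.6 at 8 weeks. The 8-week libraries were all below the lowest from before, and 24 h library 3 was lower still. Dhcr7 fell by 1.84 at 8 weeks (SE 0.68, adjusted p = 0.048), and the call was lost, with adjusted p from 0.051 to 0.12, without any library from before, 24 h library 1 or any 8-week library. Against 24 h the difference was −1.80 (SE 0.70, adjusted p = 0.081). Summed cortex markers ran alongside, at 17436, 29231, 4445 and 22603 FPKM in the 24 h libraries and 1993, 4970, 2127 and 4021 at 8 weeks, so that the lowest 24 h library was the same in both, as was the order of the 8-week libraries. The part of cortex cell content in the Dhcr7 level was not tested. The ratio of Dhcr7 to Sc5d was 5.87 ± 1.09 (SD, n = 5) before and 1.69 ± 1.26 (n = 4) at 8 weeks, with no overlap, and 7.04 ± 5.3 (n = 4) at 24 h, where library 3 was at 0.18.

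The regulators changed in both directions. Srebf2, which encodes SREBP2, was at 16.1, 19.5, 27.4, 21.7 and 19.8 FPKM before, 14.6, 16.9, 17 and 11.8 at 24 h, and 10.6, 12.7, 16.6 and 13.7 at 8 weeks. Later values lay at the lower edge of the range from before or under it. At 24 h Srebf2 was at −0.46 (SE 0.19, adjusted p = 0.11). At 8 weeks it was at −0.49 (SE 0.19, adjusted p = 0.055), and neither passed. Scap was at 29.3, 31.1, 30.8, 32 and 28.8 before, 25.1, 30, 41.6 and 22.7 at 24 h, and 9.62, 12.4, 23.1 and 18.3 at 8 weeks. Values from before were within a narrow band, and 3 of the 8-week libraries were lower than every other. Scap fell by 0.79 at 8 weeks (SE 0.25, adjusted p = 0.025), a call lost without 8-week library 1 (0.065) or 2 (0.077).

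The deposited tables split Scap between 2 RefSeq transcript models that end at the same base and differ at their start, chr9:110333356-110384949 for the model of 4226 bases and chr9:110333288-110384949 for that of 4138 bases, both on GRCm38. The longer model was at 22.9, 26.2, 22.9, 27.8 and 24.4 FPKM before, 21, 24.6, 24.9 and 12.8 at 24 h, and 1.14, 3.14, 14.7 and 9.69 at 8 weeks. The other was at 6.46, 4.98, 7.89, 4.25 and 4.33 before, 4.01, 5.43, 16.7 and 9.89 at 24 h, and 8.48, 9.26, 8.43 and 8.59 at 8 weeks, above every value from before. Only the model of 4226 bases was lower at 8 weeks than before. Its share of the gene's FPKM went from 81.6% ± 5.23 (SD, n = 5) before to 70.6% ± 14.4 (n = 4) at 24 h and 38.4% ± 23.9 (n = 4) at 8 weeks. The difference of −43.2 percentage points at 8 weeks had p = 0.0079 in a two-sided exact permutation test, the smallest that 126 arrangements allow, and 0.14 after adjustment over the 18 such tests of 6 genes. In the authors' deposited table the log2 ratio was −2.38 (q = 0.040) for the 4226-base model and 0.68 (q = 0.034) for the 4138-base model. The sources used here do not say how reads shared by both models were divided.

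Insig1 and Insig2 encode the proteins that retain SCAP, and Insig1 is itself a target of SREBP2. Insig1 was at 14.9, 28.5, 42.8, 44.9 and 41.3 FPKM before, 36.6, 26.7, 22.4 and 20.9 at 24 h, and 70.5, 37.3, 68.5 and 66.6 at 8 weeks. Apart from library 2, the 8-week libraries exceeded all others. Insig1 rose by 0.96 against before (SE 0.31, adjusted p = 0.029), a call lost without before library 2 (0.080) or 8-week library 1 (0.072), 3 (0.077) or 4 (0.060). Against 24 h it rose by 1.31 (SE 0.34, adjusted p = 0.019), lost without 24 h library 4 (0.052). Insig2 was at 19.3, 19.3, 22.5, 17.1 and 17.8 before, 28.7, 34.2, 16.3 and 25.7 at 24 h, and 19.9, 18.4, 19.3 and 20.5 at 8 weeks. Libraries 1, 2 and 4 of 24 h were above all others and library 3 was the lowest of all, with a fold change of 0.46 (SE 0.19, adjusted p = 0.11). Insig1 over Insig2 was 1.82 ± 0.727 (SD, n = 5) before, 1.06 ± 0.307 (n = 4) at 24 h and 3.09 ± 0.724 (n = 4) at 8 weeks, and of the 8-week ratios that of library 2, 2.02, lay inside the range from before and the other 3 above it, while all 4 of the 24 h ratios lay inside.

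**Figure D4:**
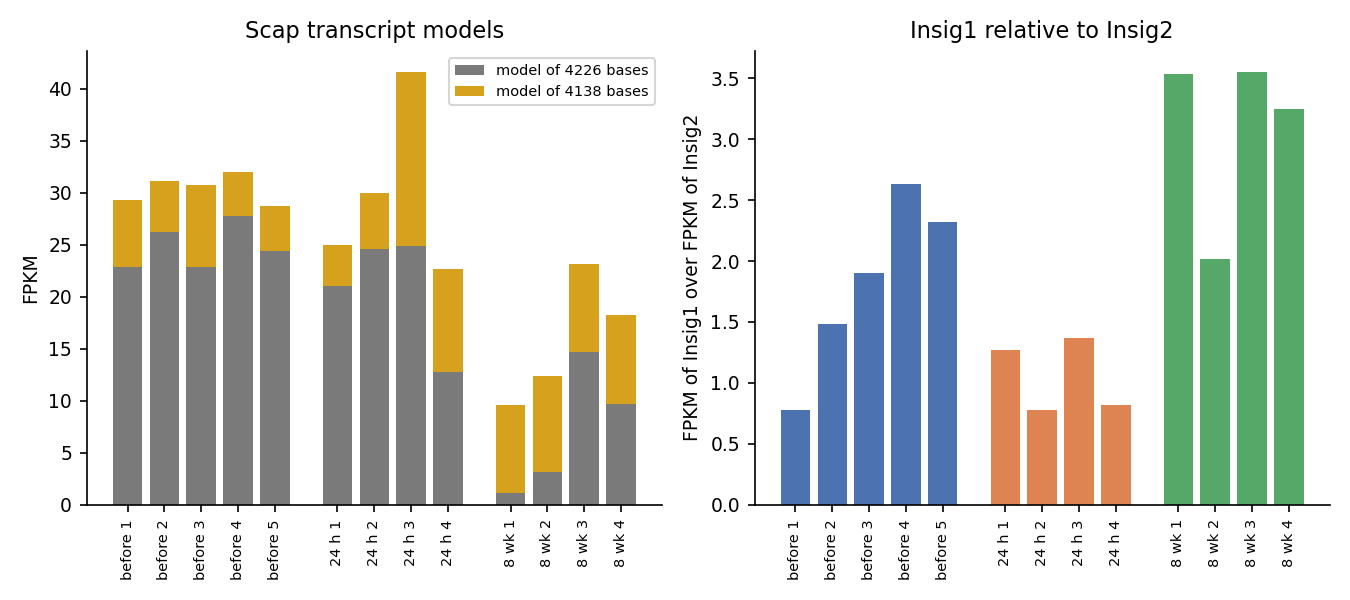
Left, FPKM of the 2 Scap transcript models stacked in each library. Right, FPKM of Insig1 divided by that of Insig2, coloured by group. The 4226-base model of Scap is at 1.14 and 3.14 in 8-week libraries 1 and 2, and the Insig1 to Insig2 ratio averages 1.82 before, 1.06 at 24 h and 3.09 at 8 weeks.

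The proteases that release SREBP2 were lower at 8 weeks. Mbtps1, the site-1 protease, was at 32.2, 41.3, 35.2, 38.6 and 35.9 FPKM before, 29.5, 26.3, 44.1 and 17.8 at 24 h, and 15.7, 20.6, 24.4 and 27.9 at 8 weeks, below every library from before. It fell by 0.58 (SE 0.21, adjusted p = 0.048), and the call was lost, with adjusted p from 0.054 to 0.14, without any library from before, 24 h library 1 or 2, or 8-week library 1 or 2. Mbtps2, the site-2 protease, was at 8.55, 7.47, 7.91, 8.76 and 7.61 before, 8.69, 6.54, 11.1 and 7.77 at 24 h, and 5.95, 5.77, 5.5 and 6.33 at 8 weeks, below every earlier library in FPKM. On the CPM scale 8-week library 4 lay just above 24 h library 2. Mbtps2 fell by 0.41 against 24 h (SE 0.13, adjusted p = 0.044), lost with adjusted p from 0.056 to 0.11 without before library 1 or 3, 24 h library 1 or any 8-week library, and was −0.32 against before (SE 0.13, adjusted p = 0.066). Exons of Mbtps2 share 2867 bases with those of Yy2 on the same strand.

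The genes that rose at 8 weeks were measured alongside fat cell markers that rose too. Summed fat cell markers were at 11925, 6409, 4489 and 8773 FPKM in 8-week libraries 1 to 4, and 4 of the 8 listed markers and 5 of the 5 brown fat markers were called higher against before. Of all genes, 20.5% were called higher in that comparison. Fabp4, at a mean of 5790 FPKM at 8 weeks, made up most of the fat cell sum. Adipoq, Plin1, Cidec and Lep were not called, and the Lep estimate was −1.24 (SE 1.43, adjusted p = 0.52). Acss2 and Acat2 were highest in the libraries with the 2 highest fat sums, 8-week libraries 1 and 4, and so was Pmvk. Of all genes, 53.5% had their highest 8-week value, in CPM, in library 1 or 4. Summed brown fat markers were at 989, 1650, 456 and 2089 FPKM in 8-week libraries 1 to 4, highest in libraries 4 and 2. Insig1 was at 68.5 in library 3, where the fat sum was lowest of the 4. Macrophage markers were called higher for 8 of 8 measured, with sums of 251 to 533 before and 2446 to 3908 at 8 weeks. The part of fat and macrophage content in these rises was not tested.

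**Figure D5:**
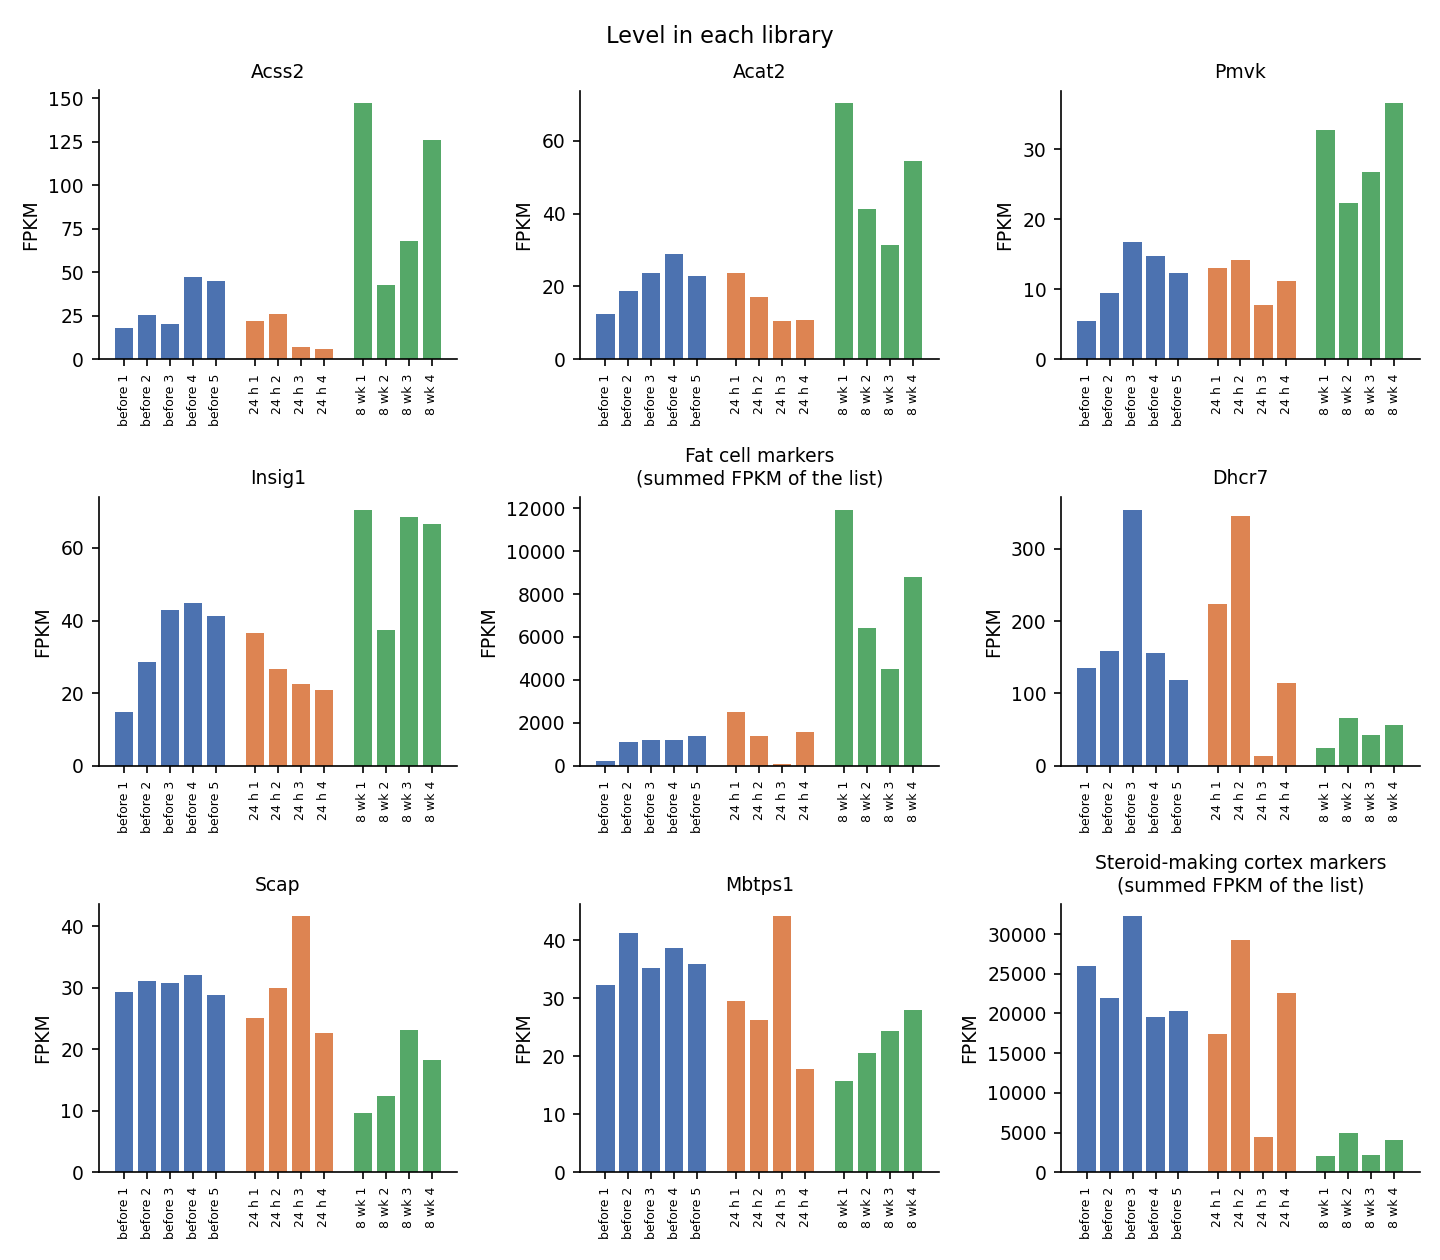
FPKM in each library of the 4 genes that rose at 8 weeks (Acss2, Acat2, Pmvk, Insig1) with the summed fat cell markers, and of 3 that fell (Dhcr7, Scap, Mbtps1) with the summed steroid-making cortex markers; bars start at 0 and are coloured by group. Fat cell sums at 8 weeks run from 4489 to 11925 and cortex sums from 1993 to 4970.

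Genes that act next to the pathway were read from lists. Of all genes, 20.5% were called higher and 16.4% lower at 8 weeks against before. The shares were 12.6% and 6.63% at 24 h against before, and 10.1% and 10.6% at 8 weeks against 24 h. Of 17 genes of sterol-regulated protein degradation and SREBP transport, none rose and 8 fell at 8 weeks, 5 fell against 24 h and none was called at 24 h against before, with medians of −0.53, −0.37 and −0.03. Sec23a and Sec24c, coat proteins of the vesicles that leave the endoplasmic reticulum, went from 21.1 ± 2.43 FPKM (SD, n = 5) to 13.3 ± 0.770 (n = 4) and from 41.1 ± 3.82 to 25.3 ± 3.72 at 8 weeks. They fell by 0.53 (SE 0.13, adjusted p = 0.0060) and 0.57 (SE 0.15, adjusted p = 0.0092). Of 12 genes of the isoprenoid branches, 2 fell at 24 h (Coq2 and Fnta) and none rose. Of 12 measured genes that handle sterols or respond to them, 3 rose and 2 fell at 8 weeks. Cyb5b, an outer mitochondrial cytochrome b5, was at 351 ± 80.4 before, 104 ± 35.2 at 24 h and 65.3 ± 11.7 at 8 weeks, and fell by 1.72 (SE 0.26, adjusted p = 0.00084) and then 2.30 (SE 0.27, adjusted p = 5.2e-05) against before.

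A list for SREBP1, the sister factor, and fatty acid synthesis also split. The list was not limited to enzymes or to genes that SREBP1 controls. Of the 13 listed genes 6 rose at 8 weeks (Elovl6, Mlxipl, Acacb, Acaca, Scd1 and Fasn), beside 20.5% of all genes. In the same comparison 4 fell (Scd2, Elovl5, Fads1 and Fads2), beside 16.4% of all genes, and the median was 1.65. Elovl6, an elongase of saturated fatty acids, went from 13 ± 6.75 FPKM (SD, n = 5) to 81.2 ± 30.5 (n = 4), a rise of 2.79 (SE 0.49, adjusted p = 0.00084), while Fads2, a desaturase of polyunsaturated fatty acids, went from 776 ± 108 to 107 ± 36.5 and fell by 2.71 (SE 0.74, adjusted p = 0.013). Srebf1 itself was at 39.2 ± 8.53 before, 41.4 ± 22.2 at 24 h and 42.6 ± 14.8 at 8 weeks and was not called. At 24 h only Elovl5 was called, with a fall of 0.96 (SE 0.24, adjusted p = 0.013). The fat cell sums given above apply to these genes as well.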

How the data were processed

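The deposited tables list, per RefSeq transcript and library, an expected count (which need not be whole; 43.3% to 46.4% were) and FPKM, per the file headers. A further table deposited by the authors compares 8 weeks with before and holds log2 FPKM, the log2 ratio of the groups, and their p-value with a q-value. Per the submitters' processing notes, bcl2fastq 2.17 and TopHat2 2.0.14 were used with mm10 (GRCm38). Per the labels' protocols the mRNA kit is stranded. The sources used here do not name the counting program.

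The tables share 18738 transcripts of 14078 genes. The 28 members span 36 transcripts, and 6 have more than 1. Expected counts were summed per gene, rounded and tested with edgeR 4.0.16 (R 4.3.3), by quasi-likelihood. All 13 libraries entered 1 unblocked model with TMM scaling, and p-values had Benjamini-Hochberg adjustment. The standard error (SE) is |log2 fold change| over √F. Transcript shares were tested by exact permutation of FPKM shares. Listed markers were summed as FPKM. RefSeq promoter windows (GRCm38.p6) were searched for 4 motifs. The script was tested on simulated data. Alternatives included DESeq2 1.42.0, limma 3.58.1 with quality weights, other scalings, a replicate block, and leaving out each library. All members are described, with full values for each called gene. The members, the gene lists, the markers and the motifs were chosen with earlier results of these data known. Same-numbered libraries of different groups had correlations of deviations from −0.13 to 0.28, so the numbers were not treated as pairs. Results of some listed genes that are not members are not reported here.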

Additional observations from a re-analysis of the deposited data

Results flagged for a closer look

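Of 84 groups of libraries tested for a single library far from the rest (28 genes in 3 groups), 9 had one. The test's rate of about 1 in 20 assumes independent, normally distributed values. These genes share libraries and move together, so the count of 9 cannot be set against that rate. The library stood high for Fdft1 in 24 h library 3 (25.8 FPKM, the others 7.39 to 8.38), Tm7sf2 in 8-week library 3 (28.9, the others 6.76 to 8.27), Hsd17b7 in 8-week library 3 (5.88, the others 3.85 to 4.14) and Ebp in 8-week library 3 (55.4, the others 23.1 to 26.1). Sc5d stood high in library 3 of every group, at 56.3 before, 78.8 at 24 h and 89.7 at 8 weeks. Dhcr7 stood high in before library 3 (354, the others 118 to 159). Insig1 stood low in 8-week library 2 (37.3, the others 66.6 to 70.5). Of the 9, 4 were in 8-week library 3, which also held the albumin level of 13283 FPKM, and 2 were in 24 h library 3.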

How the results depend on the processing

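Counts of called genes moved with the settings, and no called fold change reversed its direction. Of 23 calls, 5 held under all 24 alternatives: Acat2 and Pmvk at 8 weeks against before, and Acss2, Acat2 and Nsdhl at 8 weeks against 24 h. Of 61 uncalled gene comparisons, 19 were called under some alternative. The lowest count of a member in a library was 56, and the effect of read depth on the calls was not tested.

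For 8 weeks against before, the 6 genes called lower became 10 with library size alone, 3 with the replicate block, 11 without before 1 and 24 h 3 together, 10 with limma's quality weights and 2 without before 5 and 8 weeks 3 together. For 24 h against before, the 0 called higher became 1 (Insig2) without before 1 and 24 h 3, with quality weights and without 24 h 3 and 24 h 4. The 4 called lower became 1 with the block, 2 with only the groups compared (shared or all listed transcripts), 8 without before 1 and 24 h 3, 8 with quality weights, 7 with DESeq2, 1 without before 5 and 8 weeks 3, and 2 without 24 h 3 and 24 h 4. For 8 weeks against 24 h, the 7 called higher became 4 without 24 h 3 and 24 h 4. The 2 called lower became 0 with upper quartile scaling, 1 with the block, 0 with only the groups compared, 4 with DESeq2 and 1 without before 5 and 8 weeks 3. The cause was not tested. Leaving out 1 library at a time gave 2 to 5 called higher and 0 to 9 lower for 8 weeks against before, 0 to 1 and 0 to 6 for 24 h, and 5 to 7 and 0 to 4 for 8 weeks against 24 h. Leaving out before 5 and 8 weeks 3 together, or 24 h 3 and 24 h 4 together, was chosen after seeing the data.

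Library size alone moved the median of all genes from 0.030 to −0.097 at 8 weeks against before, and the share of calls that were higher from 55.5% to 44.2%, and from 48.9% to 36.1% at 8 weeks against 24 h.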
